A study of Mus musculus with 4 samples.

Results

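The collagen genes were taken as every gene in the matrix whose symbol consists of Col, a type number, the letter a and a chain number, which gave 44 of 31053 genes. Collagens are the triple-helical proteins of the extracellular matrix, and each gene codes for a single chain of a helix. Fibril-forming types give tissue its tensile strength, type IV forms the sheet-like network of basement membranes, and smaller types coat fibrils, span the cell membrane or sit in vessel walls. In liver, hepatic stellate cells, portal fibroblasts and vascular mural cells are the recognised makers of fibrillar collagen, and fibrosis is the build-up of that matrix.

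The study took mouse liver for single-cell RNA sequencing in a model in which hepatocellular carcinoma was induced by genes that the labels do not name. Tumor tissue was sampled at week 4, at week 8 and at a late stage, given as week 10 in the sample label and week 12 in the series text, and normal liver was sampled at week 0, with 1 sample each. Strain, age, sex and the driver genes are not given in the labels, which also do not say whether animals were pooled. The question of how collagen levels change from normal liver to tumor could not be put to these data: all cells were deposited in a single matrix with barcode suffixes 1 to 4, and no source used here pairs a suffix with a sample. The pool was therefore treated as 1 sample without replicates, each suffix is called a library, and no p-value is given. Intervals are 95% intervals from exact Poisson or binomial limits and cover counting error alone.

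The 4 libraries held 8584, 7970, 9788 and 8441 analysed cells, 34783 in all. Median UMIs (unique molecules) per barcode were 1304, 3131, 1318 and 2484, so libraries 2 and 4 were deeper than libraries 1 and 3. Cells were clustered without the collagen genes and were named, as "X-like", from marker lists. The stromal-like class had 319 cells (112, 29, 132 and 46 by library), the vascular endothelial-like class 1784 (117, 551, 200 and 916), the sinusoidal endothelial-like class 2660 (1963, 83, 511 and 103), the hepatocyte-like class 20363 and the cholangiocyte-like class 100. Immune-like classes held 8385 cells. The stromal-like cluster had 23 of its 24 markers in at least 10% of its cells, and Dcn, Tagln, Acta2 and Bgn, genes of fibroblasts and contractile mural cells, were among its leading genes. The vascular name was weaker: it rested on 14 of 18 markers in cluster 8 and 11 of 18 in cluster 17, and in both clusters the sinusoidal list scored higher than the vascular list. The name came from the 10 leading genes, which held 2 vascular markers in cluster 8 and 3 in cluster 17. At a clustering resolution of 2 the vascular class held 709 cells, and a cluster of 1302 cells, led by Adamts1 and Fabp4, took the sinusoidal name. Between libraries, 710 barcode sequences were shared.

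Of the 44 collagen genes, 40 had at least 1 UMI in analysed cells and 19 had at least 100, which is called measured here. The 21 genes between these limits are described by counts, with ratios between classes for Col4a5 and Col16a1 as well. Col11a2, with 121 UMIs, was the measured gene closest to the limit, and Col4a5, with 76, lay closest below it. Col6a4, Col9a2, Col10a1 and Col26a1 had no UMI, which allows each a UMI in up to 0.00862% of cells. Together the collagens gave 38130 UMIs: 12288 from the basement membrane chains of type IV, 11595 from the multiplexins Col15a1 and Col18a1, 10064 from fibrillar chains, 1898 from fibril-associated chains, 1263 from the beaded filament chains of type VI, 737 from transmembrane chains, 258 from short chain types and 27 from the remaining types. These are molecule counts at the 3′ end of transcripts and are not scaled by length.

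Stromal-like cells were 0.917% of all cells and held 35.1% of all collagen UMIs (34.6 to 35.5%). Their summed collagen level was 13909 CPM (UMIs of the gene per 1e+06 UMIs of the summed cells; 13674 to 14146), and 95.3% of these cells had a collagen UMI. By library the stromal-like level was 4175, 16083, 10676 and 36244 CPM. Vascular endothelial-like cells reached 901, 2244, 792 and 1536 CPM, sinusoidal endothelial-like cells 1009, 1130, 861 and 1098 CPM, and hepatocyte-like cells 29.2, 222, 82.5 and 153 CPM. The stromal-like level was thus above that of each of these classes in all 4 libraries, with library 4 highest. Hepatocyte-like cells, 58.5% of all cells, held 36.1% of the collagen UMIs at 156 CPM over the pool. T cell-like cells, which are not collagen producers, had 46.1 CPM. Without library 4 the pooled stromal-like level was 8418 CPM.

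**Figure D1:**
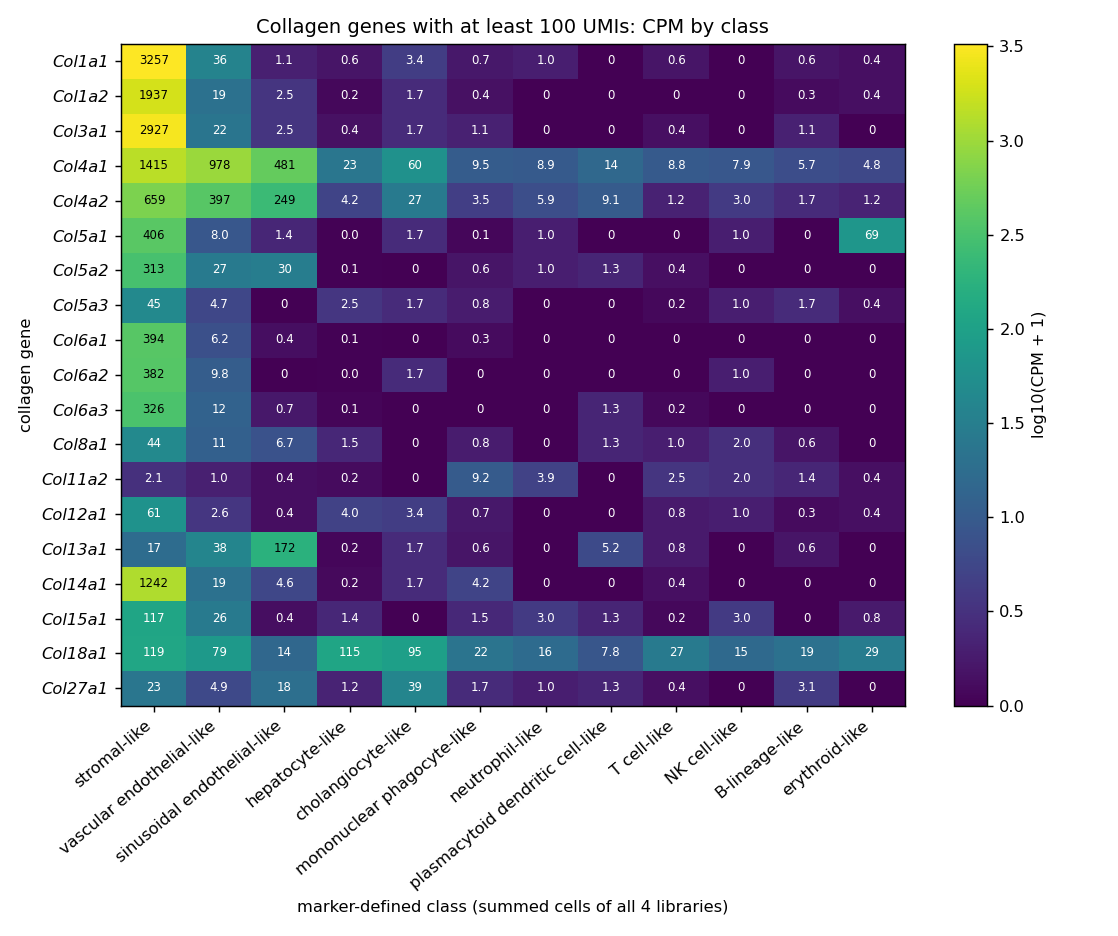
CPM of the 19 measured collagen genes (rows) in the marker-defined classes (columns), pooled over the 4 libraries, on a colour scale of log values. Stromal-like cells lead 16 of the 19 rows; Col13a1 is highest in sinusoidal endothelial-like cells, Col11a2 in mononuclear phagocyte-like cells and Col27a1 in cholangiocyte-like cells. The leads of Col11a2, Col18a1 and Col27a1 lie within counting error.

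Of the 19 measured genes, 16 were highest in stromal-like cells. Of the others, Col27a1 led in cholangiocyte-like over stromal-like cells at a ratio of 1.71 (0.911 to 3.22). Col11a2 led in mononuclear phagocyte-like over neutrophil-like cells at a ratio of 2.34 (0.870 to 8.83). Both of these leads lay within counting error. For Col18a1 the lead lay within counting error, at 119 CPM in stromal-like and 115 CPM in hepatocyte-like cells (ratio 1.03, 0.848 to 1.24), and without library 4, or at a clustering resolution of 0.5, other classes led in Col4a1, Col4a2 and Col18a1. Col18a1 alone lost the stromal-like lead at resolution 2, with median-of-ratios size factors, with totals without the 50 most abundant genes and with thinned cells. Of its 114 UMIs in stromal-like cells, 30 lay in 17 cells led by genes of lymphatic endothelium, described further on. The comparison of stromal-like with all other cells read every collagen whose UMIs in the compared cells summed to 50 or more. A gene was called at a ratio of at least 2, provided that no library holding at least 20 cells on each side went the other way. By this rule 17 of 21 collagens were higher in stromal-like cells, against 14.9% of all 14512 genes read, and 0 were lower, against 12.7%. The median log2 ratio was 6.67 over these collagens and 0.17 over all genes read. By family the higher genes were 7 of 8 fibrillar, 3 of 3 basement membrane, 3 of 3 beaded filament, 2 of 3 fibril-associated, 1 of 1 short chain, 0 of 1 transmembrane and 1 of 2 multiplexin chains.

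The chains of the major fibrils of types I and III stood furthest apart. Col1a1, the α1 chain of type I collagen, had 548, 3139.9, 1748 and 10889.5 CPM in the stromal-like cells of libraries 1 to 4, against 0.215, 1.33, 0.534 and 3.46 CPM in all other cells. Col1a2, its α2 partner, had 411, 1368, 1659 and 5505 CPM in stromal-like cells, against 0.358, 1.006, 0.579 and 1.12 CPM. Col3a1, which codes for type III collagen of reticular fibres, had 913, 1596, 2737 and 7631 CPM in stromal-like cells, against 0.429, 1.09, 1.20 and 1.68 CPM. For all 3 genes the lowest stromal-like library lay far above the highest value in other cells, and library 4 was the highest of the stromal-like libraries. Pooled ratios were 1900 for Col1a1 (1650 to 2198), 2185 for Col1a2 (1798 to 2681) and 2404 for Col3a1 (2037 to 2858).

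The order of type I and type III differed between libraries. Col1a1 made up 66.3% of the summed Col1a1 and Col3a1 UMIs in stromal-like cells of library 2 (61.8 to 70.6%) and 58.8% in library 4 (57.1 to 60.4%). In libraries 1 and 3 it made up 37.5% (33.3 to 41.9%) and 39.0% (36.5 to 41.5%). These libraries also differ in the kinds of stromal-like cells they hold, as described further on.

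Type V collagen, which starts and limits the thickness of type I fibrils, followed at lower levels. Col5a1 had 121, 560, 343 and 960 CPM in stromal-like cells, against 0.358, 2.95, 0.223 and 1.73 CPM in other cells, a pooled ratio of 230 (194 to 273). Col5a2 had a ratio of 186 (155 to 224). Col5a3 averaged 44.7 CPM in stromal-like cells and 2.14 CPM in other cells, a ratio of 20.9 (14.7 to 28.9). All of these were higher in stromal-like cells of every library. Col27a1, a fibrillar chain known from cartilage, had a ratio of 11.6 (7.11 to 17.9), and Col11a2 had only 2 UMIs in stromal-like cells.

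Thinning each cell to 1000 UMIs, which left 240 stromal-like cells and set aside 79 shallower ones, gave a Col1a1 UMI in 45.0% of stromal-like cells (46.1% unthinned). At the same depth the share was 0.859% in vascular endothelial-like, 0.0935% in sinusoidal endothelial-like and 0.0863% in hepatocyte-like cells, and 0.0578% in T cell-like cells, which should lack the gene. The sinusoidal and hepatocyte-like shares were close to that of T cell-like cells. They rest on 1 of 1069 and 14 of 16214 cells, against 1 of 1730 T cell-like cells. Before thinning, 19 of the 50 Col1a1 UMIs in hepatocyte-like cells were in 2 cells with at least 5 each. Whether these UMIs are background was not tested. The T cell-like cells had a median of 1952.5 UMIs and the stromal-like cells 2388 before thinning.

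**Figure D2:**
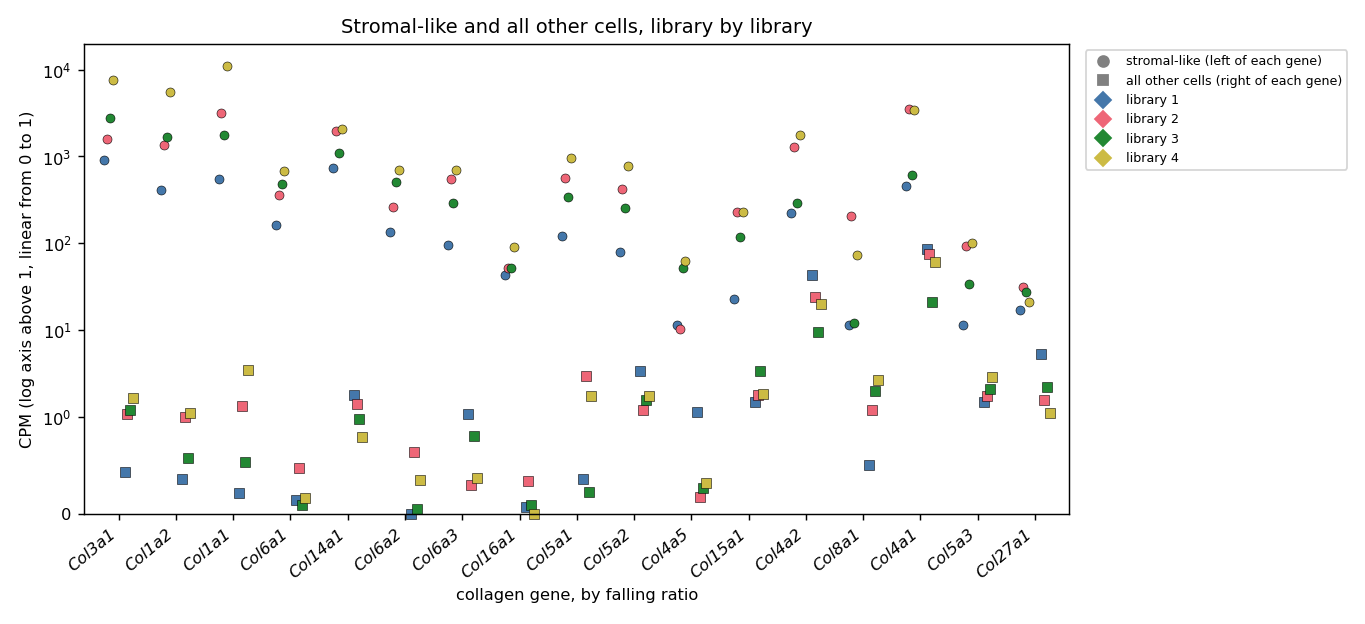
CPM of collagen genes in stromal-like cells (left of each pair) and in all other cells (right), a point per library, on an axis that is logarithmic above 1 and linear from 0 to 1. For Col1a1 the stromal-like points run from 548 to 10889.5 CPM and the points of other cells from 0.215 to 3.46 CPM.

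The chains of type VI collagen, which assemble into beaded filaments around cells, were nearly absent outside the stromal-like class. Col6a1 had 164, 363, 481 and 686 CPM in stromal-like cells, against 0.143, 0.471, 0.0890 and 0.160 CPM in other cells. Pooled ratios were 1488 for Col6a1 (1036 to 2207), 1048 for Col6a2 (765 to 1467) and 645 for Col6a3 (489 to 863). Stromal-like cells held 92.2% of Col6a1, 89.3% of Col6a2 and 83.7% of Col6a3 UMIs. The alternative chains were rarer still: Col6a5 had 40 of its 41 UMIs and Col6a6 all of its 26 UMIs in stromal-like cells.

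Among the fibril-associated types, which decorate fibrils without forming them, Col14a1 was the most abundant, with 738, 1948, 1090 and 2072 CPM in stromal-like cells, against 1.79, 1.41, 0.979 and 0.798 CPM in other cells. Its libraries differed less from each other than those of Col1a1. Its pooled ratio was 1049 (881 to 1257), and that of Col16a1 was 357 (208 to 638). Col12a1 had 0, 114, 33.7 and 195 CPM in stromal-like cells, against 0.716, 4.66, 0.668 and 3.59 CPM. It was higher in 3 of 4 libraries and therefore not called.

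Type IV collagen was shared between the stromal-like and endothelial-like classes. Col4a1 and Col4a2 code for the chains that combine, in a ratio of α1 to α2 chains fixed by the helix, into the network of nearly all basement membranes. Col4a1 had 457, 3544, 615 and 3469.9 CPM in stromal-like cells, against 455, 1296, 432 and 882 CPM in vascular endothelial-like cells. Col4a2 had 221, 1285, 288 and 1782 CPM in stromal-like cells, against 203, 527, 193 and 351 CPM in vascular endothelial-like cells. The stromal-like value was the higher in each library, but in libraries 1 and 3 the classes lay close together. The pooled ratios were 1.45 for Col4a1 (1.36 to 1.54) and 1.66 for Col4a2 (1.51 to 1.82), under the limit of 2. Against all other cells the ratios were 22.9 and 29.4.

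The remaining type IV chains were rare. Col4a5, part of the basement membrane network known from kidney, had 34 UMIs in stromal-like and 42 in all other cells, a ratio of 102 (62.8 to 164), with 21 of the others in cholangiocyte-like cells. Its level was alike in these classes, at 35.7 CPM in cholangiocyte-like and 35.4 CPM in stromal-like cells, a ratio of 1.01 (0.557 to 1.79). Col4a4 had 23 of 41 and Col4a6 had 9 of 16 UMIs in stromal-like cells. Col4a3 had 10 UMIs, of which 6 were in sinusoidal endothelial-like cells.

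The other 13 genes under the limit had 1 to 30 UMIs each. Col9a3, a fibril-associated chain of cartilage, had 30 and Col7a1, the chain of anchoring fibrils, had 25, of which 4 were in stromal-like cells. Col20a1 had 13, Col8a2 had 7, Col22a1 and Col24a1 had 5 each, Col25a1 had 4, Col17a1 had 3, Col9a1, Col11a1 and Col28a1 had 2 each, and Col2a1 and Col19a1 had 1 each. All 5 UMIs of Col24a1, a fibrillar chain, were in stromal-like cells. These counts are too few to order the classes.

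Across the 23 clusters the log2 levels of Col4a1 and Col4a2 had a Pearson correlation of 0.984, and those of Col1a1 and Col1a2 one of 0.998. These are descriptions over clusters that share libraries and depth. For Col1a1 and Col1a2 the value rests mainly on the single stromal-like cluster, as both were far lower in every other class. In stromal-like cells 121 of the 147 cells with a Col1a1 UMI also had a Col1a2 UMI, and 109 of the 207 with a Col4a1 UMI also had a Col4a2 UMI. The genes of the type IV pair face each other on the same chromosome. Their promoter windows, 250 bases before to 50 after each annotated start in RefSeq (GRCm38.p6), are printed here because the starts lie 21 bases apart and the windows share 78 bases. The shared bases are in capitals, and each sequence is given 5′ to 3′ on its own strand, Col4a2 from chr8:11312555-11312854 on the plus strand and Col4a1 from chr8:11312777-11313076 on the minus strand.
Col4a2: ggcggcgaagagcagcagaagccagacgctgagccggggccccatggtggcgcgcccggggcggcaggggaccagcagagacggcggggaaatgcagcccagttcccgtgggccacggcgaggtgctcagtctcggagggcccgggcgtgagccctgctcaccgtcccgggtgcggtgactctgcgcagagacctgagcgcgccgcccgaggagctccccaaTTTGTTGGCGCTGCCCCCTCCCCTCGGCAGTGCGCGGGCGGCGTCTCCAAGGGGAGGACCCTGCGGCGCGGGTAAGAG
Col4a1: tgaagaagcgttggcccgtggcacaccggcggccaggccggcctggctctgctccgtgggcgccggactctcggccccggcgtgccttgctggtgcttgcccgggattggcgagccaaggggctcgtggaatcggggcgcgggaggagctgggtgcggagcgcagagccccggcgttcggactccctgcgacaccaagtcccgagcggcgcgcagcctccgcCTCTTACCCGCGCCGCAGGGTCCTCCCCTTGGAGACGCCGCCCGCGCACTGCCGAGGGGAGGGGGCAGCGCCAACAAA
No other pair of collagen windows overlapped on opposite strands. Of all 27025 genes with a window, 11.9% had such an overlap with another gene. Of the collagens, 35 had a window. The files' own build is mm9 per the labels, so these coordinates belong to the RefSeq table and not to the deposited counts.

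Col1a2 and Col3a1 lie apart, on chromosomes 6 and 1, although both were highest in stromal-like cells of every library. Their windows, Col1a2 at chr6:4505368-4505667 and Col3a1 at chr1:45311288-45311587, both on the plus strand, are shown for comparison with each other. Capitals mark CCAAT, or ATTGG where it lies on the other strand, in Col1a2, and TATAAA in Col3a1.
Col1a2: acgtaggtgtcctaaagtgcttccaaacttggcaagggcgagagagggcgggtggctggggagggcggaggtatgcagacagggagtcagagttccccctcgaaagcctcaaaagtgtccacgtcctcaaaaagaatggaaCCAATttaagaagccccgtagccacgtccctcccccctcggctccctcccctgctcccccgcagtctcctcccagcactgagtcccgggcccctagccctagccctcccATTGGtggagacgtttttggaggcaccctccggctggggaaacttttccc
Col3a1: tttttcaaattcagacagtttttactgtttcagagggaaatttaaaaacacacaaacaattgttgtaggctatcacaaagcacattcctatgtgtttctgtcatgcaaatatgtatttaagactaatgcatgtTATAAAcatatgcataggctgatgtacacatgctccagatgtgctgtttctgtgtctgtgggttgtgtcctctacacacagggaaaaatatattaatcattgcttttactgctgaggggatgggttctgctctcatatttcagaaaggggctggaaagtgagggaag
Counted from the annotated start, CCAAT lay at -109 to -105 and, on the other strand, at 1 to 5 in Col1a2, and TATAAA at -117 to -112 in Col3a1. Searching both strands, CCAAT was in 34.2% of the 38 collagen windows and 37.4% of all 32851 windows, and TATAAA in 13.2% of collagen windows and 13.6% of all windows. These letter matches are descriptions of the windows only.

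Set against vascular endothelial-like cells alone, 14 of 18 collagens were higher in stromal-like cells, against 5.72% of all genes read, and 1 was lower, against 6.4%. The lower gene was Col13a1, a transmembrane collagen of cell adhesions, with a ratio of 0.435 (0.242 to 0.730). This call was lost at resolutions 0.5, where the log2 ratio turned to 0.55, and 2, with thinned cells and without library 4. The 14 included all 6 fibrillar chains read, all 3 type VI chains and all 3 fibril-associated chains, with ratios from 4.02 for Col8a1, a short chain collagen of vessel walls, to 132 for Col3a1. Leaving out the 9 vascular endothelial-like cells with 5 or more UMIs of Col1a1, Col1a2 and Col3a1 gave 13. Of all UMIs of Col1a1 in vascular endothelial-like cells, 88.5% were in 7 cells with at least 5 each. Those 9 cells had a median of 8609 UMIs and UMIs of 19 of the 24 stromal markers at a summed 17522 CPM, against a median of 1488 UMIs and 21 of 24 markers at 4571 CPM in vascular endothelial-like cells without a UMI of these genes. The part of depth and of other stromal genes in these counts was not tested.

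Stromal-like cells were then split without the collagen genes. Of 6 sub-clusters 3 could be named: 74 smooth muscle- or pericyte-like cells (4, 24, 6 and 40 by library), 53 fibroblast-like cells (14, 0, 38 and 1) and 146 stellate-like cells (63, 3, 76 and 4). All 16 stellate markers were detected in stellate-like cells, all 13 fibroblast markers in fibroblast-like cells, and 8 of 12 mural markers in smooth muscle- or pericyte-like cells, which also had 14 of 16 stellate markers. Summed collagen was 26833 CPM in smooth muscle- or pericyte-like cells (26242 to 27434) and 19991 CPM in fibroblast-like cells (19369 to 20628). It was 4272 CPM in stellate-like cells (4028 to 4526). Within libraries the order of the first 2 turned. In libraries 1, 3 and 4 smooth muscle- or pericyte-like cells had 6281, 6700 and 36102 CPM. Fibroblast-like cells had 11825, 18887 and 54152 CPM there. Among stromal-like cells the smooth muscle- or pericyte-like share was 3.57%, 82.8%, 4.55% and 87.0% in libraries 1 to 4, and the stellate-like share was 56.2%, 10.3%, 57.6% and 8.70%. Kind of cell and library can therefore not be told apart where smooth muscle- or pericyte-like cells are compared with the other sub-classes. Fibroblast-like and stellate-like cells share libraries 1 and 3.

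Of 13 collagens read, 12 were at least 2-fold higher in smooth muscle- or pericyte-like than in stellate-like cells, against 16.4% of all genes read, and 0 were lower, against 14.9%. Col1a1 had 7433 CPM in smooth muscle- or pericyte-like cells and 279.6 CPM in stellate-like cells, a ratio of 26.6 (21.1 to 33.9). Within smooth muscle- or pericyte-like cells it stood at 3486 CPM in library 2 and 10899.6 CPM in library 4, and at 739 and 1263 CPM in the few cells of libraries 1 and 3. In stellate-like cells it stood at 237 CPM in library 1 and 275 CPM in library 3, and at 576 and 1461 CPM in the 3 and 4 cells of libraries 2 and 4. Within each library the smooth muscle- or pericyte-like value was the higher, but the stellate-like value of library 4 lay above the smooth muscle- or pericyte-like values of libraries 1 and 3. Pooled ratios of the other chains were 11.0 for Col1a2, 10.1 for Col5a2, 8.21 for Col3a1, 5.63 for Col6a3, 4.71 for Col4a1, 4.63 for Col6a2, 4.53 for Col4a2, 4.51 for Col5a1 and 2.90 for Col6a1. In libraries 1 and 3 the order of Col4a1 turned. It had 554 and 330 CPM in smooth muscle- or pericyte-like cells, against 618 and 905 CPM in stellate-like cells. In libraries 2 and 4 the order was kept. Col4a2 turned in library 3 as well, with 8 UMIs among 36418, against 30 among 76271 in stellate-like cells. In library 1 it had 0 UMIs among 5413, against 309 CPM in stellate-like cells. Col5a1, Col5a2, Col6a2 and Col6a3 also had 0 UMIs in these 4 cells of library 1, against 23, 9, 13 and 19 in stellate-like cells. Col6a1 turned in library 2, at 355 CPM, against 768 CPM in 3 stellate-like cells. Col18a1 and Col15a1, the multiplexins of vascular basement membranes, had 74 and 66 UMIs in smooth muscle- or pericyte-like cells and 1 UMI each in stellate-like cells. Col14a1 was the exception, at 1866.8 CPM in smooth muscle- or pericyte-like cells and 1189 CPM in stellate-like cells, a pooled ratio of 1.57 (1.36 to 1.81). In library 3 its order turned, at 137 CPM in 6 smooth muscle- or pericyte-like cells and 1626 CPM in 76 stellate-like cells. The order was kept in libraries 1, 2 and 4, though library 1 stood at 1108 and 1020 CPM.

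Fibroblast-like over stellate-like cells gave 8 of 11 collagens at least 2-fold higher, against 13.6% of all genes read, and 0 lower, against 15.9%. Col1a1 had 4169 CPM in fibroblast-like and 279.6 CPM in stellate-like cells, a ratio of 14.9 (11.8 to 19.2). A single fibroblast-like cell, of library 4, held 222 of the 815 Col1a1 UMIs of the sub-class. In the libraries with at least 14 fibroblast-like cells, fibroblast-like Col1a1 stood at 2799 CPM in library 1 and 3387 CPM in library 3, each above the stellate-like value of the same library. Col1a2 (10.3), Col6a2 (9.61), Col3a1 (9.26), Col5a2 (8.32), Col6a1 (4.92), Col5a1 (3.86) and Col6a3 (3.76) followed in ratio. The basement membrane chains did not: the ratio was 0.869 for Col4a1 (0.687 to 1.10) and 0.920 for Col4a2 (0.654 to 1.29). Col14a1 had a ratio of 1.17 (0.996 to 1.38). In libraries 1 and 3 it was the lower in fibroblast-like cells, at 837 and 1457 CPM, against 1020 and 1626 CPM in stellate-like cells.

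Of 14 collagens read in smooth muscle- or pericyte-like over fibroblast-like cells, 3 were at least 2-fold higher, against 17.3% of all genes read, and 1 was lower, against 10.9%. Both counts are near these shares. The higher genes were Col18a1, with a ratio of 7.08 (3.27 to 18.2), Col4a1, with 5.42 (4.49 to 6.61), and Col4a2, with 4.93 (3.77 to 6.55). In library 3, the only library with more than 4 cells of both sub-classes, the order of Col4a1 turned, at 330 CPM in 6 smooth muscle- or pericyte-like cells and 648 CPM in 38 fibroblast-like cells. Col4a2 turned there too, with 8 UMIs among 36418 in smooth muscle- or pericyte-like cells and 47 among 143488 in fibroblast-like cells. The lower gene was Col6a2, with 0.482 (0.384 to 0.604). Col1a1 had a pooled ratio of 1.78 (1.64 to 1.93) and Col1a2 of 1.07 (0.966 to 1.18). Within libraries Col1a1 went the other way. In libraries 1, 3 and 4 it had 739, 1263 and 10899.6 CPM in smooth muscle- or pericyte-like cells. Fibroblast-like cells had 2799, 3387 and 16115 CPM there, the last in 1 cell. Col1a2 was the lower in smooth muscle- or pericyte-like cells of these libraries too. The UMI ratio of Col1a1 to Col1a2 was 2.04 in smooth muscle- or pericyte-like cells (1.89 to 2.19), 1.22 in fibroblast-like cells (1.10 to 1.35) and 0.843 in stellate-like cells (0.611 to 1.16). That of Col4a1 to Col4a2 was 2.18, 1.98 and 2.10 in the same sub-classes, with overlapping intervals.

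**Figure D3:**
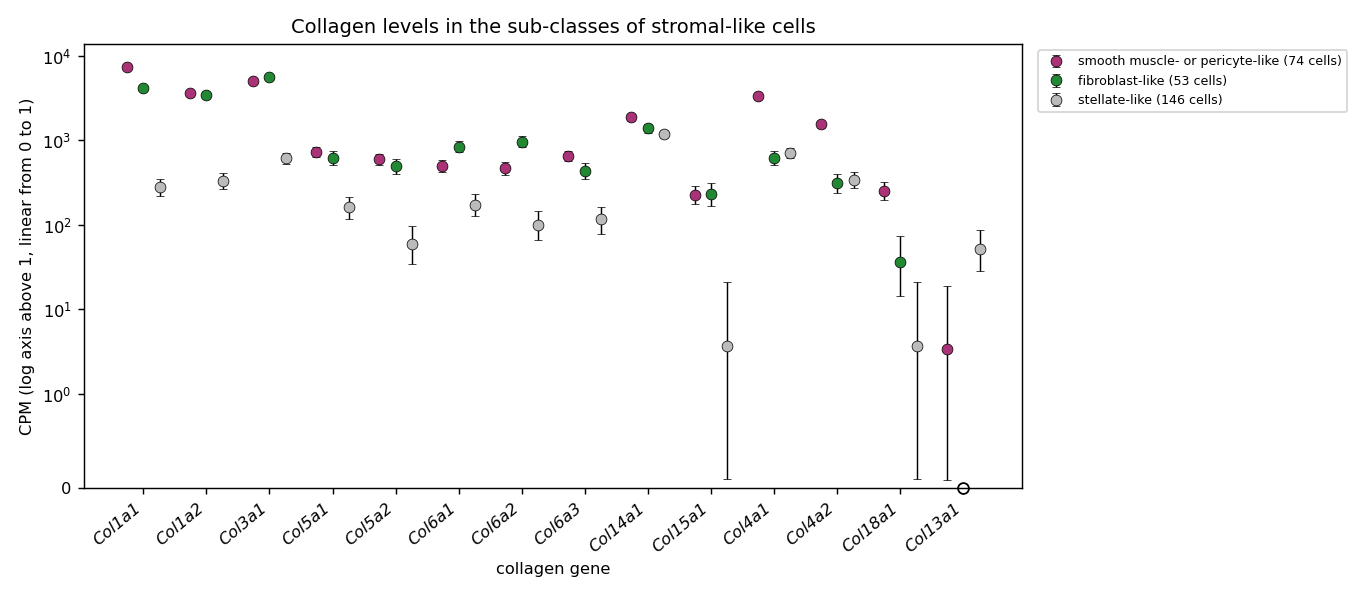
CPM of collagen genes in smooth muscle- or pericyte-like, fibroblast-like and stellate-like cells, pooled over libraries, with 95% Poisson intervals, on an axis that is logarithmic above 1 and linear from 0 to 1. Col1a1 stands at 7433, 4169 and 279.6 CPM over the pool. Within libraries 1, 3 and 4 it is lower in smooth muscle- or pericyte-like than in fibroblast-like cells. Col4a1 is high in smooth muscle- or pericyte-like cells (3357 CPM) and close in the others (619 and 712 CPM).

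The 3 sub-clusters without a name were small. Sub-cluster 0 (17 cells) was led by Ccl21a, Mmrn1 and Lyve1, genes known from lymphatic endothelium. It had 1170 CPM of collagen with no UMI of Col1a1, and held 10 UMIs of the transmembrane chain Col23a1. It also held 30 of the 114 stromal-like Col18a1 UMIs, at 362 CPM. Sub-cluster 1 (18 cells) had 15 of 16 stellate markers and 3052 CPM. Sub-cluster 5 (11 cells) had 9 of 9 mesothelial markers and 3176 CPM, with 8 of the 41 Col4a4 UMIs.

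In the endothelial-like classes the type IV chains were the main collagens, and the vascular and sinusoidal classes differed most clearly in Col15a1 and Col13a1. Of 12 collagens read, 1 was higher in vascular than in sinusoidal endothelial-like cells, against 3.74% of all genes read, and 2 were lower, against 3.1%. Col15a1, a multiplexin that bridges basement membrane and fibrils around capillaries, had 101 UMIs in vascular and 1 in sinusoidal endothelial-like cells, a ratio of 74.4 (13.1 to 2967). By library it stood at 13.5, 31.9, 0 and 28.0 CPM in vascular endothelial-like cells, against 0.486, 0, 0 and 0 CPM in sinusoidal endothelial-like cells. All 101 UMIs came from cluster 8, led by Igfbp3, Fabp4 and Esm1, and none from cluster 17. Cluster 8 had only 4 cells in library 1, so the vascular value there rests on at most these. The sinusoidal values of libraries 2 and 4 rest on 83 and 103 cells.

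Col13a1 went the other way. It had 58.6, 27.9, 25.6 and 47.0 CPM in vascular endothelial-like cells of libraries 1 to 4, against 189, 112, 146 and 75.5 CPM in sinusoidal endothelial-like cells. The ranges did not overlap, and the pooled ratio was 0.223 (0.184 to 0.268). Sinusoidal endothelial-like cells held 489 of its 689 UMIs. At 1000 UMIs per cell a Col13a1 UMI was in 4.22% of vascular and 15.7% of sinusoidal endothelial-like cells, against 2.92% of stromal-like and 0.0578% of T cell-like cells. With these thinned cells no collagen was called between the vascular and sinusoidal classes, so the Col13a1 and Col15a1 calls were lost. Both calls were kept in all other settings. Col27a1 was the other lower gene, with 19 UMIs in vascular and 52 in sinusoidal endothelial-like cells, a ratio of 0.269 (0.150 to 0.463). The Col27a1 call was lost under the stricter cell filter, with doublets kept, at resolutions 0.5 and 2, with the collagens and partner genes kept for clustering, with thinned cells and without library 1, although the ratio stayed below 1 in each.

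Col4a1 was not called between the endothelial-like classes although its pooled ratio was 2.03 (1.91 to 2.16). It had 455, 1296, 432 and 882 CPM in vascular endothelial-like cells, against 499.95, 453, 394 and 549 CPM in sinusoidal endothelial-like cells, and the order turned in library 1. In the same libraries Col4a2 had 203, 527, 193 and 351 CPM, against 259, 314, 196 and 226 CPM, higher in 2 of 4, with a pooled ratio of 1.59. The 2 vascular clusters differed here. Cluster 8 had 1037 CPM of Col4a1 against 481 CPM in sinusoidal endothelial-like cells, a ratio of 2.15 (2.02 to 2.29) in the same direction in all 3 libraries read. Cluster 17, led by Rspo3, Vwf and Wnt9b, had 397 CPM, a ratio of 0.824 (0.688 to 0.980). Cluster 8 had 2 of 12 collagens higher (background 6.12%) and 2 lower (4.57%), and cluster 17 had 0 of 5 higher (4.37%) and 2 lower (9.76%). Cluster 8 had 4, 550, 142 and 909 cells by library and cluster 17 had 113, 1, 58 and 7, so cluster and library cannot be told apart.

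For Col18a1 the pooled and the per-library values did not have the same direction. The gene codes for the chain whose fragment endostatin is known as an inhibitor of angiogenesis. Its pooled ratio of vascular to sinusoidal endothelial-like cells was 5.78 (4.13 to 8.29), but by library it stood at 9.01, 126, 11.4 and 61.5 CPM in vascular endothelial-like cells, against 1.46, 146, 9.99 and 68.6 CPM in sinusoidal endothelial-like cells. The vascular value was lower in libraries 2 and 4, and the levels of both classes followed the library. T cell-like cells of the same libraries had 1.94, 41.4, 16.8 and 32.9 CPM. What moves Col18a1 together in these classes was not tested.

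**Figure D4:**
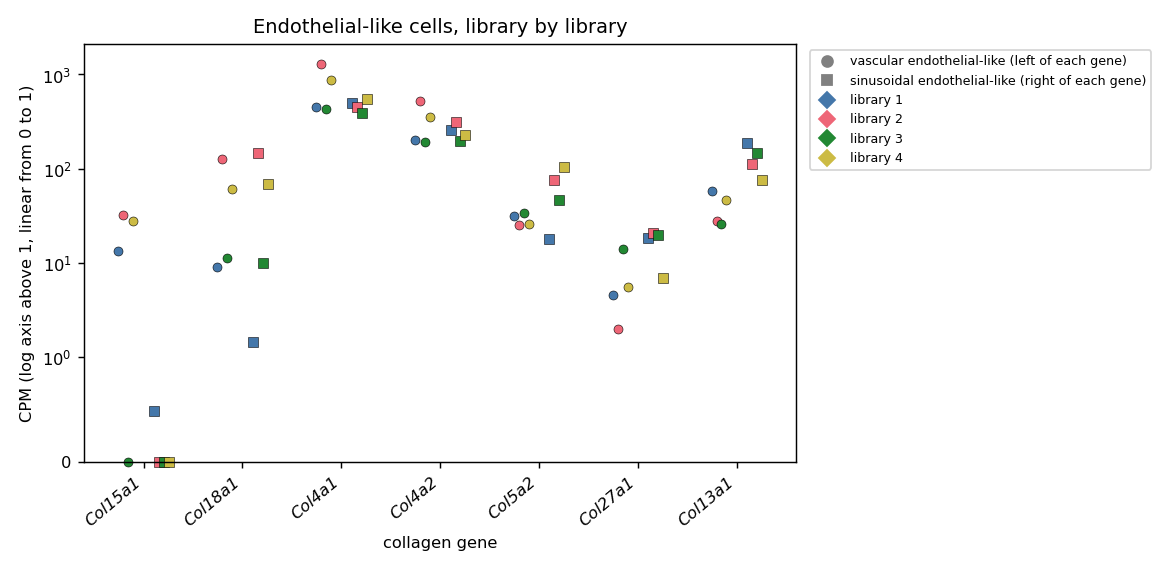
CPM of 7 collagen genes in vascular endothelial-like cells (left of each pair) and sinusoidal endothelial-like cells (right), a point per library, on an axis that is logarithmic above 1 and linear from 0 to 1. The points of Col13a1 do not overlap (25.6 to 58.6 against 75.5 to 189 CPM), while those of Col18a1 interleave.

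Hepatocyte-like cells carried little fibrillar collagen. Col18a1 was the main collagen of the pooled class, with 10158 of the gene's 11233 UMIs, of which 8398 lay in cluster 19 alone. Of 12 collagens read against immune-like cells, 3 were higher in hepatocyte-like cells, against 18.8% of all genes read, and 2 were lower, against 31.4%. Col18a1 had 18.97, 161, 59.7 and 118 CPM in hepatocyte-like cells, against 1.38, 33.2, 11.6 and 25.8 CPM in immune-like cells. Hepatocyte-like values were higher in each library, and both classes were lowest in library 1 and highest in library 2. The pooled ratio was 5.40 (4.88 to 5.98). Col12a1 had a ratio of 6.76 (3.73 to 13.7) at 3.97 CPM in hepatocyte-like cells and 0.588 CPM in immune-like cells, and Col5a3 one of 3.40 (1.98 to 6.32) at 2.54 and 0.748 CPM. The lower genes were Col14a1, with 0.126 (0.0676 to 0.229), and Col11a2, with 0.0519 (0.0310 to 0.0835). The Col14a1 call was lost with any 1 library left out, with the collagens and partner genes kept for clustering, with thinned cells and without cluster 19, which is described next. Col1a1 stood at 0.568 CPM in hepatocyte-like cells, against 0.588 CPM in immune-like cells, a ratio of 0.966 (0.496 to 2.06).

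Most of the Col18a1 in hepatocyte-like cells lay in cluster 19, which has 2375 cells (7, 1405, 177 and 786 by library) and is led by Afp, the fetal plasma protein used as a marker of hepatocellular carcinoma, by Gm26917 and by C3. Its median mitochondrial share of UMIs was 4.90%, against 0 to 3.59% in the other hepatocyte-like clusters, and the part of this share and of depth in the collagen values was not tested. Col18a1 was among its 10 leading genes although collagens took no part in the clustering. Cluster 19 had 334, 370 and 448 CPM in libraries 2 to 4, against 28.1, 35.4 and 23.5 CPM in other hepatocyte-like cells. These ranges were far apart, and the pooled ratio was 13.8 (13.1 to 14.5), with 8398 UMIs in cluster 19 and 1760 in the other hepatocyte-like cells. In cluster 19, 78.8% of cells had a Col18a1 UMI, at a median depth of 6037 UMIs, against 4.83% of T cell-like cells at 1952.5 UMIs. Without cluster 19 Col18a1 was no longer called between hepatocyte-like and immune-like cells, and Col5a3 and Col12a1 were. In the other hepatocyte-like cells, the 28.1 and 23.5 CPM of libraries 2 and 4 lay below the immune-like values given above. The 35.4 CPM of library 3 lay above the immune-like value. In library 2, though not in libraries 3 and 4, Col4a1 exceeded Col18a1 in these other cells, at 38.5 CPM.

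Col18a1 has more than 1 annotated start, and reads at the 3′ end cannot tell them apart. Windows of the 2 starts are shown because most UMIs of the gene lay in hepatocyte-like cells; both lie on the minus strand, start 1 at chr10:77166481-77166780 and start 2 at chr10:77113656-77113955. Capitals mark GGGCGG, the GC box, here written as CCGCCC because all matches lie on the other strand.
Col18a1 start 1: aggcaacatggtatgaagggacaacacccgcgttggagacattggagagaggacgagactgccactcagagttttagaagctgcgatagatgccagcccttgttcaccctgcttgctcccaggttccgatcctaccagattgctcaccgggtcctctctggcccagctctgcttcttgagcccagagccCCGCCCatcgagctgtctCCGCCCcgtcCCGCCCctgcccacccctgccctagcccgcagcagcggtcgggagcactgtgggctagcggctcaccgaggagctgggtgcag
Col18a1 start 2: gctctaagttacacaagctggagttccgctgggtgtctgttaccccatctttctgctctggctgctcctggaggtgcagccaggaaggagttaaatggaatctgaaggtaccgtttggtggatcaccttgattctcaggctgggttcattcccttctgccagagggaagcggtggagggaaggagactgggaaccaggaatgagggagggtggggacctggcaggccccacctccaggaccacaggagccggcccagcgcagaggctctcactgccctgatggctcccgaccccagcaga
Start 1 had 3 matches, at -61 to -56, -43 to -38 and -33 to -28, and start 2 had none. GGGCGG on either strand was in 60.5% of collagen windows and 35.7% of all windows. Nothing about use of either start was measured.

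Cluster 19 had 4 further collagens at least 2-fold higher than other hepatocyte-like cells, 5 of the 9 read, against 29.6% of all genes read, and 1 lower, against 4.58%. Col8a1 had 1.64, 15.6 and 10.0 CPM in cluster 19 in libraries 2 to 4, against 0.0523, 0.513 and 0.503 CPM in other hepatocyte-like cells, a pooled ratio of 15.3 (9.51 to 25.6). Col4a2 had a ratio of 9.42 (7.39 to 12.1), Col27a1 of 9.21 (5.87 to 14.9) and Col4a1 of 2.06 (1.88 to 2.25). The lower gene was Col1a1, with 2 UMIs in cluster 19 and 48 in the other cells, a ratio of 0.120 (0.0142 to 0.459). In cluster 19 the UMI ratio of Col4a1 to Col4a2 was 3.01, against 2.15 in stromal-like and 2.46 in vascular endothelial-like cells. In the other hepatocyte-like cells it was 13.8 (11.1 to 17.3), at 1197 UMIs of Col4a1 and 87 of Col4a2, and by library it was 1.67, 20.4, 2.90 and 24.3, high in libraries 2 and 4 only.

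**Figure D5:**
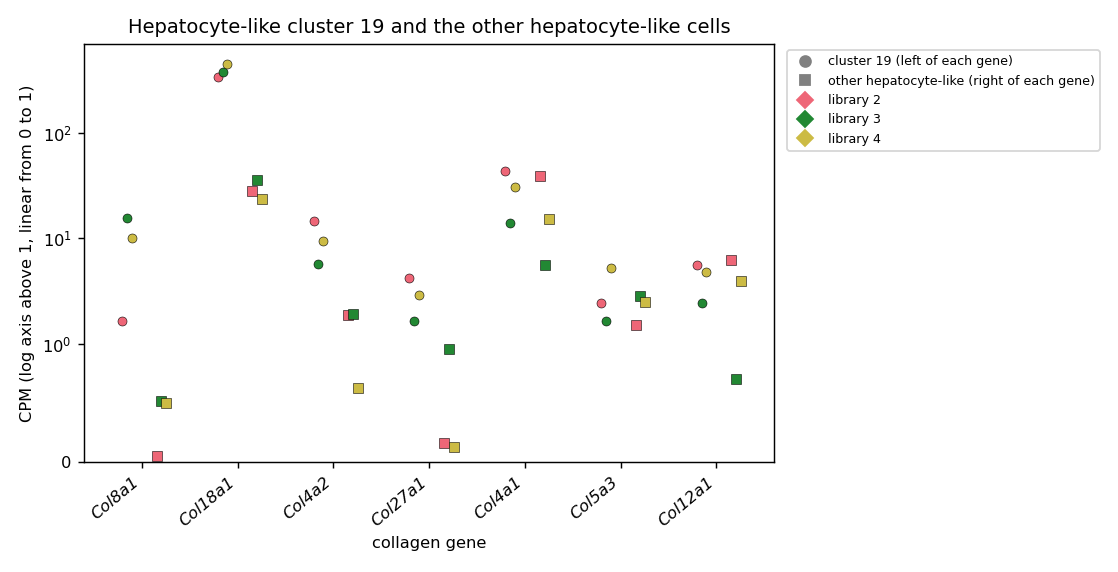
CPM of 7 collagen genes in hepatocyte-like cluster 19 (left of each pair) and in the other hepatocyte-like cells (right) in libraries 2, 3 and 4, on an axis that is logarithmic above 1 and linear from 0 to 1. Col18a1 lies at 334 to 448 CPM in cluster 19 and at 23.5 to 35.4 CPM in the others, whereas the points of Col5a3 and Col12a1 overlap.

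Cholangiocyte-like cells could be compared with hepatocyte-like cells in libraries 1 and 3 only. Of 9 collagens read, 3 were higher in cholangiocyte-like cells, against 28.2% of all genes read, and 0 were lower, against 11.4%. Col27a1 had 42.1 and 34.0 CPM in cholangiocyte-like cells of libraries 1 and 3, against 0.724 and 1.01 CPM in hepatocyte-like cells, a pooled ratio of 31.6 (19.2 to 49.9). Col4a2 had a ratio of 6.46 (3.65 to 10.6) and Col4a1 of 2.56 (1.78 to 3.57), on 16 and 35 UMIs in 100 cells. Col18a1 had 95.3 CPM in cholangiocyte-like cells, against 115 CPM in hepatocyte-like cells, with a pooled ratio of 0.826 (0.623 to 1.07).

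Genes of collagen making and turnover were read beside the collagens from 6 lists, 80 of whose 92 genes had enough UMIs. In stromal-like over all other cells 63 were higher and 2 lower, against the 14.9% and 12.7% given above. Over vascular endothelial-like cells alone 32 of 66 were higher and 1 lower, against 5.72% and 6.4% of all genes read. The counts and ratios by list that follow are over all other cells. Chaperones and enzymes of collagen folding had 17 of 21 higher, among them Fkbp10 (107), P3h4 (93.8), P3h3 (92.7) and Plod2 (85.4); the collagen chaperone Serpinh1 had 996.9 CPM in stromal-like cells and 12.8 CPM in other cells, a ratio of 77.7 (71.6 to 84.3). P4hb, the shared subunit of prolyl hydroxylase and a general disulfide isomerase, stood at 336 and 332 CPM, a ratio of 1.01.

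Propeptide cleavage and crosslinking had 9 of 10 higher. Adamts2, the procollagen N-proteinase, had a ratio of 3393 (1691 to 7959), Lox, a lysyl oxidase, 187, and Pcolce, an enhancer of C-propeptide cleavage, 174. Loxl1 had 76 UMIs in stromal-like cells and 0 in all other cells, at least 3183-fold higher against a floor of 3 counts over those cells. Of the receptors 5 of 8 were higher, with Mrc2, an endocytic collagen receptor, at 1696, Ddr2, a receptor kinase for fibrillar collagen, at 717, and the integrin chains Itga1 at 16.7 and Itgb1 at 6.73. Itga1 was highest in sinusoidal endothelial-like cells, at 321 CPM, against 251 CPM in stromal-like cells.

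Of the degradation genes 8 of 13 were higher, led by the gelatinase Mmp2 (932) and the inhibitor Timp1 (177). The 2 lower genes were the proteases Mmp9, with 1 UMI in stromal-like cells and 625 in others, and Mmp13, with 0 UMIs in stromal-like cells and 1273 in others. Fibril regulators had 14 of 15 higher, with Dpt (334 UMIs in stromal-like and 2 in other cells), Lum (284 and 5), Postn (202 and 22) and Lama2 (70 and 13). Profibrotic signals had 10 of 13 higher, led by the receptor Pdgfra (137 and 2 UMIs), Tgfb3 (71.8), Tgfb2 (40.5) and Ctgf (26.1). Ctgf was highest in cholangiocyte-like cells, at 168 CPM, against 146 CPM in stromal-like cells.

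The genes whose levels were most like Col1a1 across the 23 clusters, collagens left out, were Cygb, Colec11, Pdgfrb, Des, Cd248, Tagln, Tcf21 and Myh11, with Pearson correlations from 0.998 to 0.991. For Col4a1 they were Smtn, Map1b, Osmr, Cavin1, Tgfb1i1, Adamts1, Syde1 and 2700081O15Rik (0.975 to 0.958). For Col18a1, added after its values were seen, the first were C3 (0.944), Smoc1 (0.924), Ptprd (0.904), Fat1 (0.891) and Cdh2 (0.888). Clusters share libraries and depth, so these values only rank genes by likeness of pattern. Stromal-like cells form a single cluster here, so likeness to Col1a1 cannot tell kinds of stromal-like cell apart.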

How the data were processed

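The deposited matrix holds whole-number UMI counts that were not normalized; its header names Cell Ranger 6.0.1; the genome build is mm9 per the submitters' processing notes. Livers were digested, filtered, treated to lyse red blood cells and made into 10x Genomics 3′ libraries per the labels' protocols, which can set the shares of cells.

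Barcodes with at least 200 genes, 500 UMIs and under 20% mitochondrial UMIs were kept. The mitochondrial limit removed 1838 (30, 902, 107 and 799 by library), the other limits 84, and Scrublet scores above 0.25 removed 1367 as doublets (3.78%). The 2000 variable genes, without collagens, their partner genes and mitochondrial, ribosomal and haemoglobin genes, fed 30 components and Leiden clustering at resolution 1 (scanpy 1.11.5, igraph 0.11.9), without batch correction. Stromal-like cells were split again at resolution 0.5. Clusters were named from marker lists; 844 cells stayed unnamed. With libraries unpaired to samples, the planned comparison of tumor with normal liver was not made.

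Counts were summed by class and divided by the class total. A class ratio was called at 2-fold or more, on at least 50 UMIs, and with no library of at least 20 cells on each side going the other way; a side with no UMI was set to 3 counts. Between sub-classes of stromal-like cells the fold alone was used. Likeness is Pearson's correlation of log2(CPM + 20). The text accounts for every collagen gene, describes those with at least 100 UMIs, names those that meet the call rule, up to 4 genes per partner list, and 8 genes most like Col1a1 and Col4a1. Exceptions, such as Col18a1 likeness and P4hb, were chosen after their values were seen. The calling script was tested on simulated data. Alternatives were other cell filters, doublets kept, other resolutions, all genes in clustering, other scalings, no minimum, thinned cells and each library left out. The collagen genes, marker lists and partner lists were chosen with earlier results of these data known.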

Additional observations from a re-analysis of the deposited data

How the results depend on the processing

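The summed collagen level of stromal-like cells, 13909 CPM as reported, was 14679.7 under a stricter cell filter, 13511.8 with collagens kept for clustering, 16795 as a mean of libraries, 13089 with median-of-ratios size factors, 17260.1 without the 50 most abundant genes, 10983 with cells thinned to 1000 UMIs, and 8418 to 19440.4 with each library left out, lowest without library 4. The stromal-like share of collagen UMIs, 35.1%, was 40.4% under the stricter filter, 34.4% with doublets kept, 37.3% with collagens kept for clustering, 38.3% as a mean of libraries, 32.2% with thinned cells, and 27.9 to 47.7% with each library left out. Measured genes led by stromal-like cells were 27 of 40 with no minimum, 8 of 10 with thinned cells, and 13 to 16 with each library left out; without library 4 and at resolution 0.5, Col4a1, Col4a2 and Col18a1 were led by other classes. Collagens higher in vascular than in sinusoidal endothelial-like cells, 1 as reported, were 3 under the stricter filter, 2 with doublets kept, 9 at resolution 0.5, where the vascular class held 304 cells, 3 at resolution 2, 4 with no minimum, 0 with thinned cells, and 1 to 2 with each library left out. With no minimum, 5 were higher in hepatocyte-like than in immune-like cells, 10 in cholangiocyte-like than in hepatocyte-like cells and 23 in stromal-like than in vascular endothelial-like cells. With thinned cells the last 2 counts were 1 and 9, and 39 partner genes were higher in stromal-like cells; thinning leaves fewer UMIs to read. The log2 ratio of Col13a1 between stromal-like and vascular endothelial-like cells turned to 0.55 at resolution 0.5. The cause was not tested for the others. The comparison of stromal-like with vascular endothelial-like cells, those within hepatocyte-like and stromal-like cells, and the sub-clustering at resolutions 1 and 1.5, which each gave 12 collagens higher in smooth muscle- or pericyte-like than in stellate-like cells but, at 1.5, on 36 and 184 cells in place of 74 and 146, were chosen after seeing the data. Of the recomputed values of comparisons 98 kept their value within the limits used and 35, given above, moved; of those of single genes 465 kept it, 192 moved in size and 1 changed sign. No paired analysis was possible because no replicate number, and no sample, is tied to any cell. Stromal-like cells number 29 in library 2 and 46 in library 4, which limits every value there.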

Other observations

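Col5a1 had a source outside the stromal-like class. Erythroid-like cells held 170 of its 603 UMIs, at 68.7 CPM (58.8 to 79.8), with 63.3 and 93.6 CPM in libraries 2 and 4, which hold 237 and 80 of the 328 erythroid-like cells. A Col5a1 UMI was in 69 of these cells (21.04%), and in 0 of 1986 T cell-like cells, at median depths of 2447.5 and 1952.5 UMIs. Thinned to 1000 UMIs the erythroid-like share was 3.36% (1.55 to 6.28%), against 22.9% in stromal-like cells. Col5a2, the usual partner chain, had 0 UMIs in erythroid-like cells, and across the 23 clusters, which share libraries and depth, the 2 genes had a Pearson correlation of 0.799.

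Col11a2, a fibrillar chain known from cartilage, was highest in mononuclear phagocyte-like cells, with 66 of its 121 UMIs in 65 cells. The ratio to neutrophil-like cells, the second class with 4 UMIs, was 2.34 (0.870 to 8.83), within counting error. By library Col11a2 stood at 8.50, 8.99, 9.73 and 10.2 CPM in mononuclear phagocyte-like cells. At 1000 UMIs per cell the share with a UMI was 1.10% (0.684 to 1.68%), against 0.462% in T cell-like cells (0.200 to 0.909%).

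Fibroblast-like cells held 36 of the 41 UMIs of Col6a5, in 17 of 53 cells, and 21 of the 26 UMIs of Col6a6, in 10 cells. Stellate-like cells had 0 UMIs of either gene in 146 cells. Library 3 gave 26 of the Col6a5 and 19 of the Col6a6 UMIs in fibroblast-like cells.

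Over all hepatocyte-like cells, cluster 19 included, the UMI ratio of Col4a1 to Col4a2 was 1.67, 5.47, 2.81 and 7.27 in libraries 1 to 4, and in stromal-like cells it was 2.06, 2.76, 2.14 and 1.95. An unnamed cluster of 31 cells with both neutrophil and hepatocyte genes among its leaders had 24 UMIs of Col18a1, 297 CPM.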
